A study of Mus musculus with 12 samples.

Results

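The AP-1 transcription factors are described here by 8 genes, Fos, Fosb, Fosl1, Fosl2, Jun, Junb, Jund and Atf3, chosen by symbol from the 24098 genes of the deposited expression table. All 8 reached at least 1 FPKM (a fragment count scaled by transcript length and library size) in at least 1 library, as did 14178 genes in all. These 14178 genes are called the kept genes. The mRNA-Seq data followed mouse embryonic fibroblasts (MEFs) on their way to induced pluripotent stem cells (iPSCs), with 12 libraries and 1 library per condition. The question addressed is how the messengers of this factor family were distributed over the stages and the sorted fractions of reprogramming.

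All reprogramming cells started from MEFs of embryos with an IRES-EGFP cassette downstream of the stop codon of Oct4, which were infected with pMXs retroviruses carrying Oct4, Sox2, Klf4 and c-Myc (OSKM). D0 was the MEFs at day 0, grown in serum medium, and D3 was unsorted cells at day 3 after induction. D6T- and D6T+ were cells of day 6 sorted as negative or positive for Thy-1, a fibroblast surface marker, and D9T- and D9T+ were the same fractions at day 9. D12S+ and D12S- were cells of day 12 sorted as positive or negative for SSEA-1, a carbohydrate antigen on the surface of pluripotent cells, and D16S+ and D16S- were the same fractions at day 16. D6T-, D9T-, D12S+ and D16S+ are the fractions that the study takes as the successful route, and their counterparts as the unsuccessful route. The remaining libraries were established iPSCs and mESCs, mouse embryonic stem cells of the ESD3 line. Per the labels, reprogramming cells, iPSCs and mESCs were kept in FF medium, with knockout serum replacement, LIF, bFGF, CHIR99021 and ascorbic acid, so induction and the change of medium cannot be told apart in any comparison with D0. The cells of the 8 sorted libraries differed from the 4 unsorted libraries in both stage and sorting, and these cannot be told apart either.

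AP-1 is a family of dimers of basic leucine zipper proteins. Jun proteins (Jun, Junb, Jund) pair with each other or with Fos proteins (Fos, Fosb, Fosl1, Fosl2), Fos proteins need a Jun partner to bind DNA, and Atf3 belongs to the related ATF group and can pair with Jun proteins. Fos, Fosb, Jun, Junb and Atf3 are immediate-early genes, transcribed shortly after serum, growth factors or stress act through MAP kinases, whereas Fosl1 and Fosl2 respond later, and Jund is made at a steadier level. In fibroblasts AP-1 occupies many enhancers of genes for matrix turnover and growth.

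Total FPKM per library ranged from 484968 in D16S+ to 648264 in D0. Absolute depth is unknown, and depth relative to D0, estimated from the step size of low values, was lowest in D9T+ (0.967) and highest in D6T- (1.56). With a single library for each condition, differences could be neither tested nor checked in replicates. The errors are the intervals that cuffdiff gave to each FPKM, which are modelled and not measured between replicates. What variation the model took in is not given in the sources used here. In bulk libraries, fewer cells of a type and less RNA per cell cannot be told apart. Libraries went with their labels: 12 fibroblast markers summed to 14288 FPKM in D0 and 457 FPKM in D16S+, with Fap at 0.484 FPKM or less in all 12 libraries, and 10 pluripotency markers to 6.64 and 5204 FPKM. Thy1, the messenger of the sorting marker of days 6 and 9, was at 477 FPKM in D6T+ but 3.24 in D6T-.

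Promoter sequences were examined first, because several of the 8 genes were high in the same libraries. In RefSeq promoter windows on the GRCm38.p6 build (250 bases before to 50 after the start), 7 of the 8 genes had a window, with none for Fosl1. The letters TGACG, the core of cAMP response elements and also contained in the longer TGACGTCA, were found on either strand in 4 of these 7 genes (Fos, Fosb, Junb and Atf3) and in 20.8% of all 32851 windows. TGACATCA, an octamer of AP-1 and ATF type, was found on either strand in 1 of 7 (Jun) and in 3.62% of all windows. The palindrome TGACGTCA (1.79% of windows) and the AP-1 consensus TGACTCA (5.20%) were in 0 of 7. TATAAA on the sense strand was in Fos and Junb and in 8.32% of windows. It began 33 bases upstream of the start in Fos, but at position 1 relative to the start in Junb, so not upstream of it. Shown are the 120 bases upstream of the start for the 5 genes with a match, 5′ to 3′ on the gene's strand, with TGACG (or CGTCA, its reverse complement) and TGACATCA in capitals.
Fos (chr12:85473770-85473889, plus strand): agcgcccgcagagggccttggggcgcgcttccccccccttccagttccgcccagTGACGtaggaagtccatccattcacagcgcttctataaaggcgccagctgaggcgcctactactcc
Fosb (chr7:19310046-19310165, minus strand): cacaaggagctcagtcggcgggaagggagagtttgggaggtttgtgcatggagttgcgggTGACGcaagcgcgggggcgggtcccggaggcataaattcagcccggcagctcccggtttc
Junb (chr8:84978749-84978868, minus strand): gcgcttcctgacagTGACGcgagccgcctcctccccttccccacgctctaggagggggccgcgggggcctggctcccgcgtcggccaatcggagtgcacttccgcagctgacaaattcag
Atf3 (chr1:191183334-191183453, minus strand): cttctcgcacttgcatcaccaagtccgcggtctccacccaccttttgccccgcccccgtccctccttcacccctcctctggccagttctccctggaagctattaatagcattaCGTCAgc
Jun (chr4:95052223-95052342, minus strand): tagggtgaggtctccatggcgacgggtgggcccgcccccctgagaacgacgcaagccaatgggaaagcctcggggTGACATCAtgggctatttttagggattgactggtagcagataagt

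In these stretches TGACG began 66 bases upstream of the start in Fos, 60 in Fosb and 106 in Junb, and CGTCA 7 bases upstream in Atf3. Fos held a further TGACG beginning 129 bases upstream, outside the stretch shown. TGACATCA began 45 bases upstream of Jun. These matches describe letters in a window and were not tied to the expression values by any measurement.

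Fos, the founding immediate-early member (gene positions here are on mm9, chr12:86814840-86818223, plus strand), was low in the unsorted libraries and high in the sorted fractions of both routes. It was listed at 16.2 FPKM in D0, 23.3 in D3, 141 in D6T-, 74.9 in D6T+, 149.6 in D9T-, 167 in D9T+, 189.7 in D12S+, 171 in D12S-, 63.3 in D16S+, 145 in D16S-, 4.86 in iPSCs and 6.90 in mESCs. The highest value, D12S+, had a cuffdiff interval from 11.9 to 368 FPKM and stood above 97.3% of kept genes in that library, while the iPSC value stood above 43.4%. Fosb, a close relative that is induced with Fos (chr7:19888070-19895394, minus strand), was at 2.86 FPKM in D0, 3.26 in D3, 26.8 in D6T-, 8.48 in D6T+, 32.2 in D9T-, 57.7 in D9T+, 24.3 in D12S+, 20.6 in D12S-, 4.83 in D16S+, 15.8 in D16S-, 0.738 in iPSCs and 0.147 in mESCs. Both genes were thus higher in each of the 8 sorted libraries than in any of the 4 unsorted libraries: Fos at 63.3 FPKM or more against 23.3 or less, and Fosb at 4.83 or more against 3.26 or less. This held for 2 of the 8 AP-1 genes and for 1.56% of kept genes (221 genes). Of 18 other immediate-early genes, 2 did the same, Nr4a1, an orphan nuclear receptor, and Zfp36, an mRNA decay factor, both named because of these values.

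Fosl1, which encodes the late Fos-family protein Fra-1, showed a different distribution. It was at 81.3 FPKM in D0, 71.2 in D3, 22.4 in D6T-, 64.7 in D6T+, 22.8 in D9T-, 94.2 in D9T+, 13.1 in D12S+, 37.9 in D12S-, 4.94 in D16S+, 60.4 in D16S-, 4.05 in iPSCs and 0.946 in mESCs. D0, D3 and the unsuccessful fractions of days 6, 9 and 16 were at 60.4 FPKM or more, and the fractions of the successful route and both stem cell lines at 22.8 FPKM or less, with D12S- between them. The locus of Fosl1 in the table (mm9 chr19:5447698-5457563) also holds Ccdc85b on the opposite strand, and the strand setting of the counting was not given in the sources used here, so reads of Ccdc85b may be included. The lower end of the cuffdiff interval of Fosl1 was 0 in all 12 libraries.

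Fosl2, the gene of Fra-2 (chr5:32438845-32460204, plus strand), was at 30.3 FPKM in D0, 21.8 in D3, 9.91 in D6T-, 33.6 in D6T+, 32.1 in D9T-, 90.6 in D9T+, 17.2 in D12S+, 32.6 in D12S-, 9.89 in D16S+, 60.8 in D16S-, 7.30 in iPSCs and 1.20 in mESCs. Its highest libraries were D9T+ and D16S-. Their intervals (3.33 to 178 FPKM and 3.96 to 118 FPKM) lay apart from that of mESCs (0 to 3.27 FPKM).

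Among the Jun family, Jun and Junb were high in fibroblasts and low in stem cells, and Jund hardly varied. Jun, whose product c-Jun is the main partner of Fos (chr4:94715725-94718913, minus strand, overlapped by the antisense transcript BC042782), was at 108 FPKM in D0, 60.5 in D3, 44.8 in D6T-, 69.2 in D6T+, 62.6 in D9T-, 88.1 in D9T+, 50.5 in D12S+, 56.6 in D12S-, 26.1 in D16S+, 74.8 in D16S-, 12.4 in iPSCs and 5.40 in mESCs. D0 was its highest library, with an interval of 6.57 to 209 FPKM, which overlapped that of mESCs, 0 to 12.3 FPKM.

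Junb, a weaker activator that can oppose c-Jun (chr8:87500811-87502617, minus strand), was the most abundant of the 8 messengers in 6 of 12 libraries. It was at 184 FPKM in D0, 96.1 in D3, 139 in D6T-, 165 in D6T+, 169 in D9T-, 437 in D9T+, 127 in D12S+, 165 in D12S-, 52.6 in D16S+, 162 in D16S-, 28.6 in iPSCs and 19.3 in mESCs. The D9T+ value was above those of the other 11 libraries and above 98.7% of kept genes there, with an interval of 0 to 930 FPKM.

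Jund (chr8:73221638-73224515, plus strand, overlapped by Gm11175 on the opposite strand) was at 50.2 FPKM in D0, 46.0 in D3, 72.1 in D6T-, 63.7 in D6T+, 45.3 in D9T-, 56.3 in D9T+, 53.2 in D12S+, 41.4 in D12S-, 56.6 in D16S+, 57.8 in D16S-, 72.7 in iPSCs and 59.8 in mESCs. The ratio of its highest to its lowest FPKM was 1.76, and iPSCs, D6T- and D6T+ were its highest libraries.

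Atf3, a stress-induced factor that is often a repressor (chr1:192994175-193007219, minus strand), was highest in both fractions of day 9. It was at 2.11 FPKM in D0, 7.89 in D3, 8.30 in D6T-, 4.32 in D6T+, 45.2 in D9T-, 43.4 in D9T+, 6.58 in D12S+, 6.21 in D12S-, 4.45 in D16S+, 12.4 in D16S-, 7.99 in iPSCs and 2.17 in mESCs. The fractions of day 9 differed from each other by a log2 difference of 0.06, and the next highest library was D16S-.

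**Figure D1:**
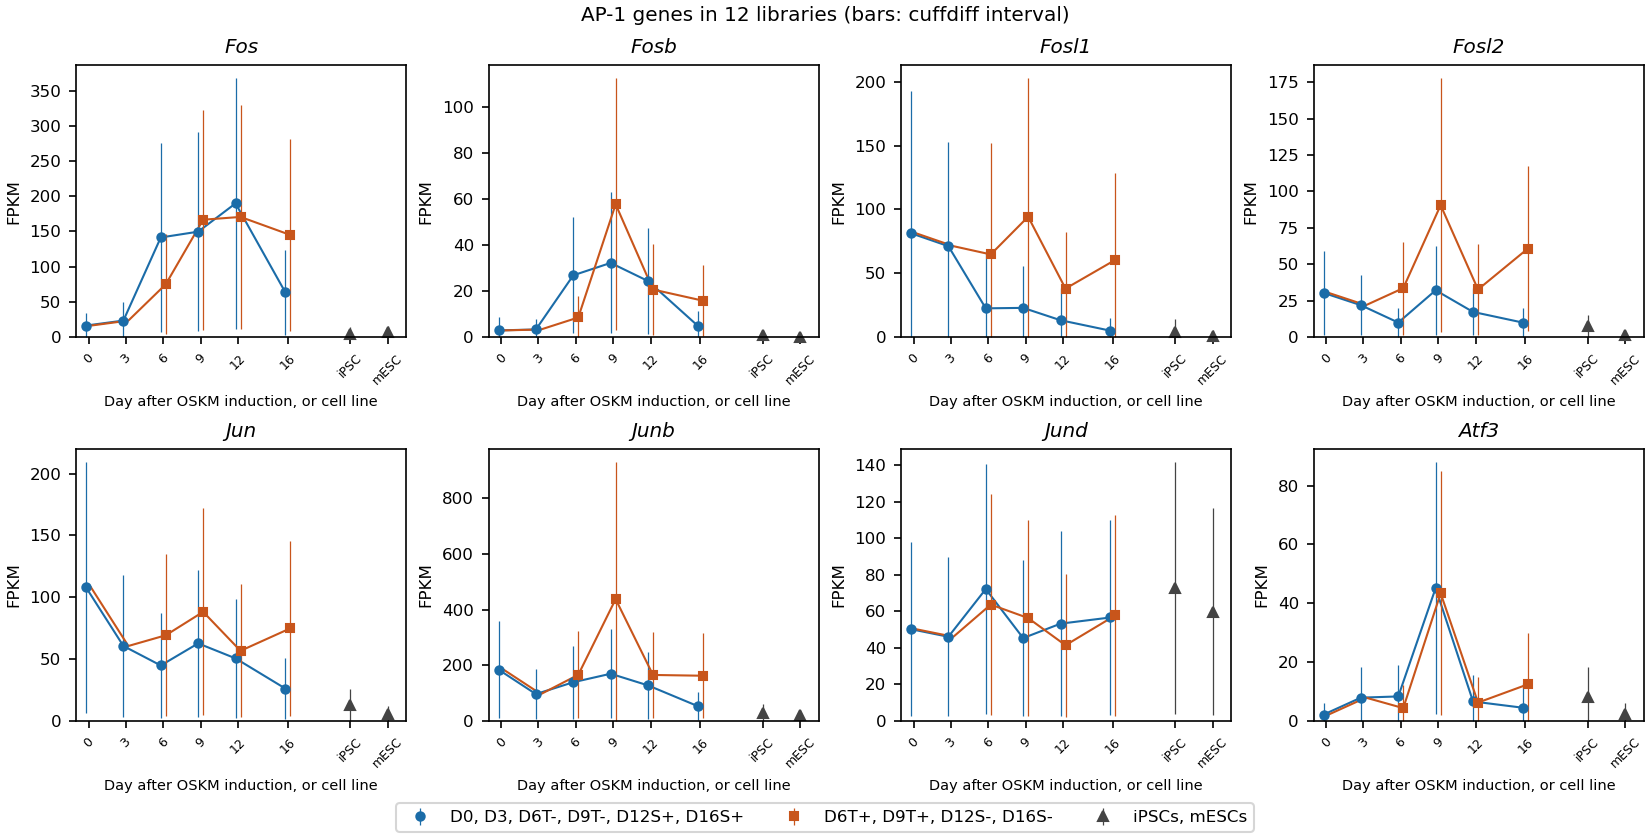
FPKM of each AP-1 gene (y axis, linear, its own scale per panel) by day after OSKM induction or cell line (x axis), 1 library per point, with the cuffdiff interval as bars and lines that only join points of a route. Fos stands high in the sorted libraries of days 6 to 12, as does Fosb except in D6T+, at 8.48 FPKM. Fosl1, Fosl2, Jun and Junb lie lower in the blue points than in the orange points of the same day. Jund stays between 41.4 and 72.7 FPKM.

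Over the 12 libraries the ratio of the highest to the lowest FPKM was 393 for Fosb, 99.6 for Fosl1, 75.8 for Fosl2, 39.1 for Fos, 22.6 for Junb, 21.4 for Atf3, 20.0 for Jun and 1.76 for Jund. On the log2(FPKM + 1) scale, used for all differences below, the range was 3.89 or more for every gene except Jund, at 0.80, against a median of 1.57 over kept genes. The range of Jund was larger than that of 9.08% of kept genes, and those of the other 7 larger than 91.6% to 97.9%. In the order of the libraries by level, none of the 11 neighbouring pairs had intervals that lay apart, for any of the 8 genes. Of all 66 pairs of libraries, intervals lay apart in 6 for Fosb and in 2 for Fosl2, nearly all against mESCs, and in 0 for each of the other 6 genes. The exact order of neighbouring libraries is therefore not resolved by these intervals. They were wide also for the steadiest member, at 2.50 to 97.9 FPKM for Jund in D0, listed at 50.2 FPKM. The share of kept genes with intervals apart was not computed, so these counts cannot be read as a trait of the 8 genes.

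The summed FPKM of the 8 genes gives the size of the AP-1 messenger pool per transcript length. The sum was 475 FPKM in D0, 330.1 in D3, 464 in D6T-, 484 in D6T+, 559 in D9T-, 1034 in D9T+, 482 in D12S+, 531 in D12S-, 223 in D16S+, 589 in D16S-, 139 in iPSCs and 95.9 in mESCs. It was largest in D9T+, where Junb alone made up 42.3% of it, and D16S+ was the lowest of the reprogramming fractions.

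The makeup of the pool differed between libraries, also between those of like size. Fos-family messengers were 27.5% of the sum in D0, 43.2% in D6T-, 50.7% in D12S+ and 49.3% in D12S-, and 12.2% and 9.58% in iPSCs and mESCs. In the stem cells Jund, a minor part of the pool in D0 at 10.6%, made up 52.5% (iPSCs) and 62.3% (mESCs). Within the Fos family, Fosl1 held 62.2% in D0 and 59.5% in D3, and Fos 12.4% and 19.5%. In D6T- these shares were 11.2% for Fosl1 and 70.5% for Fos, and in D12S+ 5.37% and 77.6%. The ratio of Fos to Fosl1 FPKM was 0.200 in D0 and 0.327 in D3, then 6.30 against 1.16 in D6T- and D6T+, 6.56 against 1.77 in D9T- and D9T+, 14.5 against 4.50 in D12S+ and D12S-, and 12.8 against 2.40 in D16S+ and D16S-. On each of the 4 days it was higher in the fraction of the successful route. The ratio was 1.20 in iPSCs and 7.29 in mESCs, where both genes were low. In iPSCs Fosl2 held the largest share of the Fos family, at 43.1%, with Fos at 28.7% and Fosl1 at 23.9%. The lower end of the Fosl1 interval was 0 in all 12 libraries, so these ratios are loosely bounded.

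**Figure D2:**
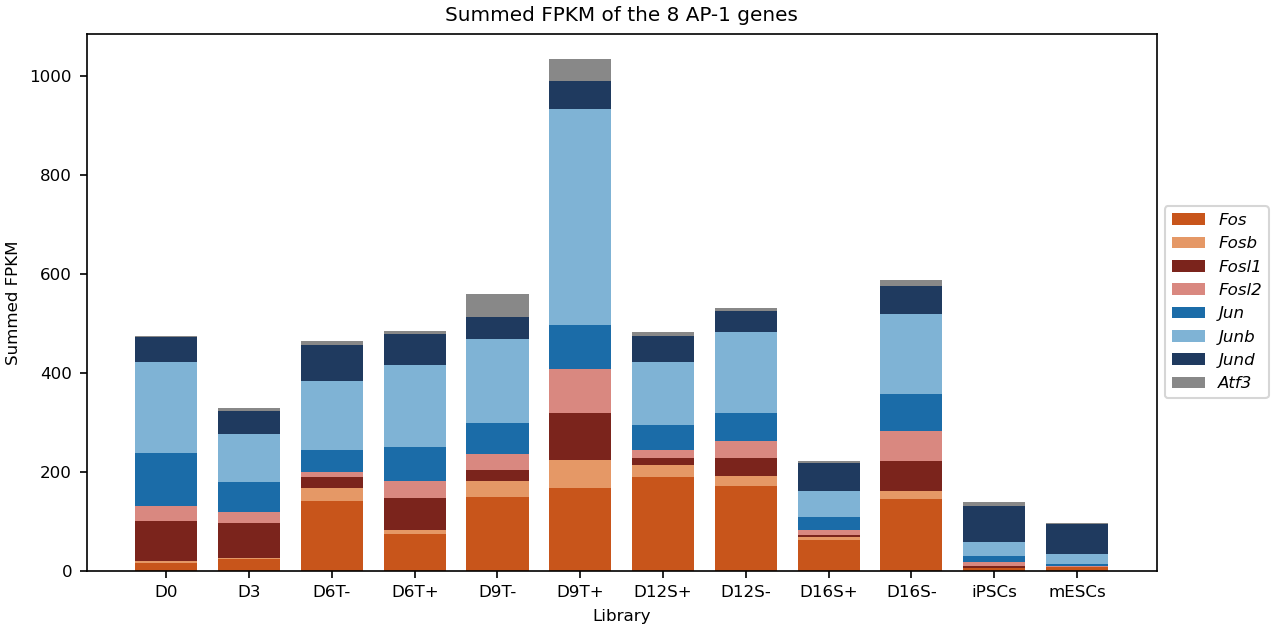
Summed FPKM of the 8 AP-1 genes (y axis, linear from 0) in each of the 12 libraries (x axis), 1 stacked bar per library with a colour per gene. The bar of D9T+ reaches 1034 FPKM, and those of iPSCs and mESCs, at 139 and 95.9 FPKM, are mostly Jund.

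Between D0 and D3 most of the 8 genes differed by less than 2-fold. A gene is called past 2-fold here when it differed by at least 1 on the log2(FPKM + 1) scale. Of 8 genes, 1 was past 2-fold higher in D3 than in D0 (Atf3, 1.51), beside 5.76% of kept genes, and 0 were past 2-fold lower, beside 8.67%. Junb and Jun came nearest to the threshold on the lower side, at -0.93 and -0.82. Fos and Fosb differed from D0 by 0.50 and 0.14.

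In D6T- the Fos-family genes differed from D0 in both directions. The comparisons of D6T- and D6T+ with D0 share the D0 library. D6T- was past 2-fold above D0 in 3 genes (Fos 3.05, Fosb 2.85, Atf3 1.58), beside 9.42% of kept genes, and below it in 3 (Fosl1 -1.81, Fosl2 -1.52, Jun -1.25), beside 14.5%. With every library scaled to equal total FPKM, Jun was at -0.92 in this comparison, which leaves 2. D6T+ was past 2-fold above D0 in 2 (Fos 2.14, Fosb 1.29), beside 4.83%, and below it in 0, beside 4.39%. Fosl1 and Fosl2 in D6T+ differed from D0 by -0.32 and 0.14.

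Between the fractions of 1 day, the genes of the late Fos-family proteins were lower in the successful route. Fosl1 was past 2-fold lower on all 4 days, at -1.49 in D6T- against D6T+, -2.00 in D9T- against D9T+, -1.46 in D12S+ against D12S- and -3.37 in D16S+ against D16S-. It was the only one of the 8 genes to be so on every day, as were 1.07% of kept genes (152 genes). Fosl2 was lower by the same comparisons at -1.66, -1.47, -0.88 and -2.50. Jun (-0.62, -0.49, -0.16 and -1.49) and Junb (-0.25, -1.36, -0.37 and -1.60) were also below 0 on all 4 days, which makes 4 of 8 genes beside 24.8% of kept genes. No member was above 0 on all 4 days, beside 23.2% of kept genes. Sorting marker and day changed together between days 9 and 12.

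The remaining members had no common direction. Fos differed by 0.91, -0.15, 0.15 and -1.18 on days 6, 9, 12 and 16, Fosb by 1.55, -0.82, 0.23 and -1.53, and Atf3 by 0.80, 0.06, 0.07 and -1.30. Fosb was past 2-fold higher in the successful route on day 6 and past 2-fold lower on day 16. Jund differed by 0.18, -0.31, 0.35 and -0.03.

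By day, the counts past 2-fold were 1 higher and 2 lower on day 6 (beside 2.93% and 9.47% of kept genes), 0 and 3 on day 9 (1.81% and 6.45%), 0 and 1 on day 12 (4.79% and 3.03%) and 0 and 7 on day 16 (11.8% and 15.2%). On day 16 all of the genes but Jund were past 2-fold lower in D16S+, with a median of -1.51 over the 8 genes and -0.02 over kept genes. In D16S- the same 7 genes were at 12.4 FPKM (Atf3) to 162 FPKM (Junb), and in D16S+ at 4.45 (Atf3) to 63.3 FPKM (Fos).

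**Figure D3:**
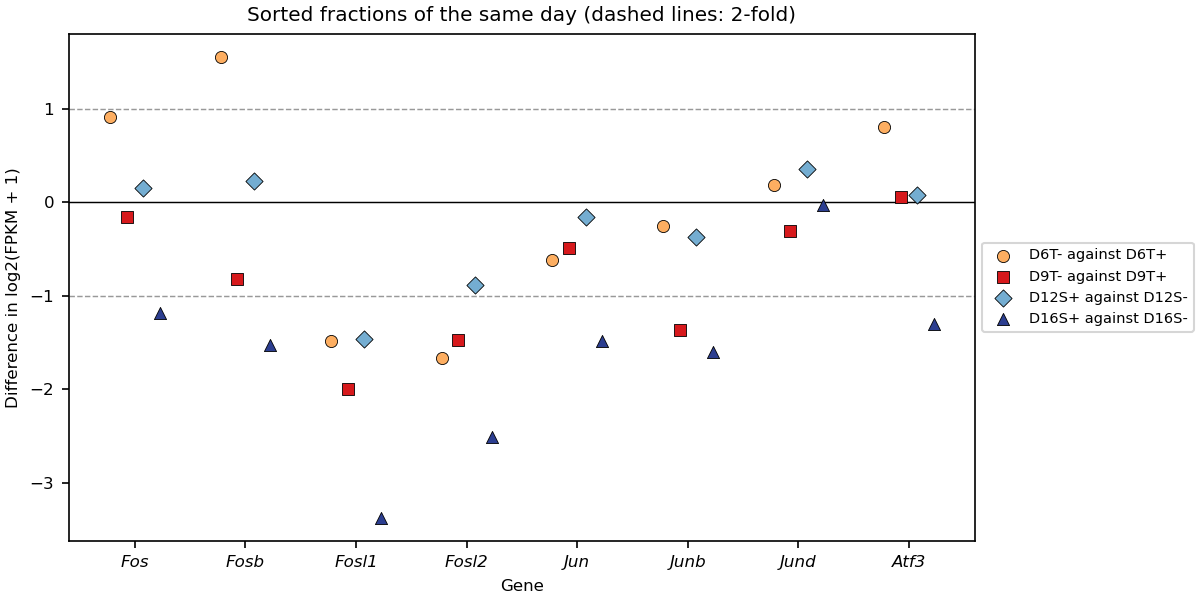
Difference in log2(FPKM + 1) between the sorted fractions of each day (y axis) for the 8 AP-1 genes (x axis), successful route minus unsuccessful route, 1 point per day and 1 library per fraction. Fosl1 lies below the lower dashed 2-fold line on all 4 days, and on day 16 (triangles) every gene but Jund does.

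Marker lists moved with these fraction differences, and their part in them was not tested. Of 11 kept fibroblast markers, 9, 8, 7 and 7 were past 2-fold lower in the successful fraction on days 6, 9, 12 and 16, with medians of -2.25, -2.10, -1.31 and -3.27, and 0 were past 2-fold higher. The counts and medians of days 6 and 9 include Thy1, the sorting marker (491 FPKM in D9T+, 3.72 in D9T-), whose difference was set by the sort. On the 4 days 2.93%, 1.81%, 4.79% and 11.8% of kept genes were past 2-fold higher, and 9.47%, 6.45%, 3.03% and 15.2% lower. Of 10 pluripotency markers 1, 5, 10 and 10 were past 2-fold higher on the 4 days, and 1, 0, 0 and 0 lower. Of 10 epithelial markers 3, 6, 6 and 5 were past 2-fold higher, and 1, 0, 0 and 3 lower. The 10 leukocyte markers summed to 203 FPKM in D16S- and 89.9 in D16S+, made up largely of Cd68 and Laptm5 (named for their values), while Ptprc, the defining leukocyte gene, was at 0.425 FPKM or less in all 12 libraries. Of the 8 kept leukocyte markers, 3 were past 2-fold lower in D16S+ than in D16S- and 0 higher, Cd14 (-1.91), Laptm5 (-1.54) and Csf1r (-1.45), which macrophages express. Itgam and Fcer1g, also on the list, differed by 0.02 and 0.11. Laptm5 was also at 40.5 FPKM in iPSCs and 52.1 in mESCs, and Cd68 at 40.0 and 48.0. In the same lines Csf1r was at 6.52 and 0.0953 FPKM, and Cd14 at 0.361 and 0.413. On days 6, 9 and 12 the leukocyte counts were 1 higher and 1 lower, 0 and 0, and 0 and 0. Of 7 kept endothelial markers, 3 were past 2-fold higher in D16S+ than in D16S-, led by Pecam1 (3.28), and 3 lower, led by Esam (-1.63). Pecam1 was also at 27.3 FPKM in iPSCs and 61.1 in mESCs, and Esam at 4.01 and 3.19. On days 6, 9 and 12 the endothelial counts were 1 and 1, 1 and 0, and 1 and 1.

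D9T+ held the largest AP-1 pool. Fosb, Fosl1, Fosl2 and Junb had their highest value there, 4 of 8 genes beside 4.30% of kept genes (609 genes). Against D0, 5 of 8 were past 2-fold higher (Fosb 3.92, Atf3 3.84, Fos 3.28, Fosl2 1.55 and Junb 1.24), beside 10.0% of kept genes, and 0 past 2-fold lower, beside 7.53%. Against D6T+, the same fraction 3 days earlier, the same 5 were past 2-fold higher (Atf3 3.06, Fosb 2.63, Fosl2 1.41, Junb 1.40 and Fos 1.14), beside 4.92% of kept genes, and 0 lower, beside 1.38%. Jun and Jund differed from D6T+ by 0.34 and -0.17.

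Between D6T- and D9T- fewer members differed: Atf3 (2.31) and Fosl2 (1.60) were past 2-fold higher, 2 of 8 beside 5.06%, and 0 lower, beside 1.14%. Fos, already at 141 FPKM in D6T-, differed by 0.08 and Fosl1 by 0.02.

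Other immediate-early genes, a list of 18 that holds no AP-1 member, were also high in D9T+. In that library 13 of 18 had their highest value, beside 4.30% of kept genes, among them Nr4a1 at 748 FPKM. Against D0 13 were past 2-fold higher, beside 10.0% of kept genes, and 0 lower, beside 7.53%, with a median of 1.99. The largest differences were those of Nr4a3 (4.52), Nr4a1 (4.30), Egr3 (2.90) and Egr2 (2.82), which encode nuclear receptors and zinc finger factors of the same early response. Against D6T+ 13 were past 2-fold higher, beside 4.92% of kept genes, 0 lower, beside 1.38%, and all 18 lay above 0, beside 46.9%. The rise to day 9 was not particular to the Thy-1 positive fraction. Every gene of the list was also higher in D9T- than in D6T-, from Nr4a1 (262 against 43.0 FPKM) to small differences such as Ier5 (9.13 against 7.30). The share of kept genes that were higher at any size in D9T- was not computed. On day 9 itself, 7 of 18 were past 2-fold lower in D9T- than in D9T+, beside 6.45% of kept genes, and 0 higher, beside 1.81%. The lower ones were led by Nr4a3 (-2.75), Nr4a2 (-2.36), Ier3 (-1.54) and Ier5 (-1.52). On day 16, 11 were past 2-fold lower in D16S+, beside 15.2% of kept genes. The list had 1 gene past 2-fold higher, beside 11.8%, Klf2 (2.50), a factor of the pluripotency network. The lists were drawn up with results of these libraries known, so their direction is no separate support for that of the 8 genes.

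**Figure D4:**
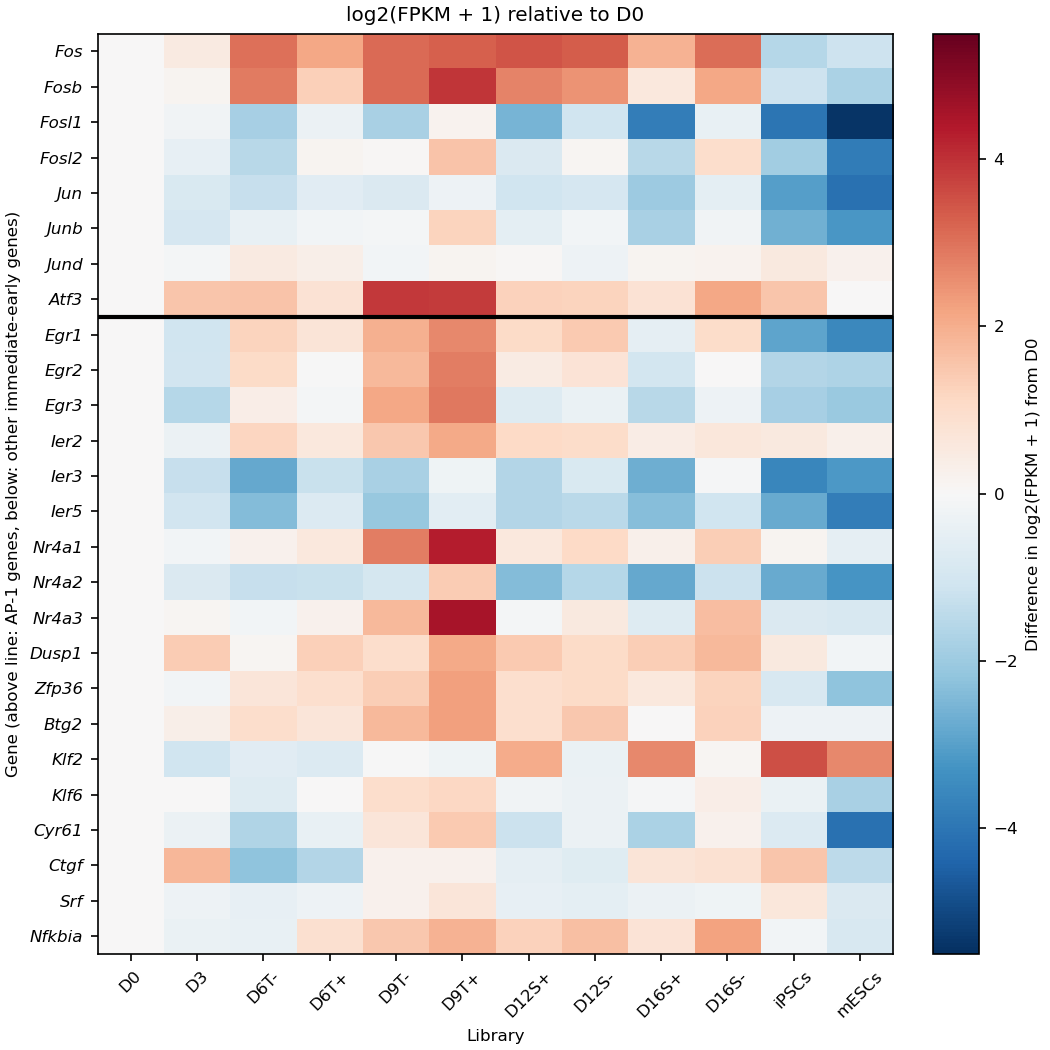
Difference in log2(FPKM + 1) from D0 (colour scale, red higher and blue lower) for the 8 AP-1 genes above the line and 18 other immediate-early genes below it (rows) in each of the 12 libraries (columns, 1 library each). The D9T+ column holds Fosb at 3.92, Nr4a3 at 4.52 and Nr4a1 at 4.30, and the row of Fos is red in the 8 sorted libraries.

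The kinase and receptor genes upstream of the family, 20 genes of the MAP kinase and serum response pathway, were counted in the same way. Between D9T+ and D6T+, 0 were past 2-fold in either direction, beside 4.92% of kept genes higher and 1.38% lower. Against D0, 0 were past 2-fold higher in D9T+, beside 10.0%, and 2 lower, beside 7.53%. The PDGF receptors of fibroblasts were lower in D6T- than in D6T+ (Pdgfrb -3.04, Pdgfra -2.89). In that comparison 4 of 20 were past 2-fold lower, beside 9.47%. On days 9, 12 and 16 the counts were 1 higher and 2 lower (beside 1.81% and 6.45%), 0 and 0 (4.79% and 3.03%), and 2 and 5 (11.8% and 15.2%).

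Of 14 listed genes of leucine zipper proteins that pair with AP-1 or resemble it, some were past 2-fold lower in successful fractions. Past 2-fold they were 0 higher and 4 lower on day 6 (beside 2.93% and 9.47% of kept genes) and 0 and 3 on day 9 (1.81% and 6.45%). On day 12 they were 0 and 0 (4.79% and 3.03%), and on day 16 0 and 5 (11.8% and 15.2%). With 14 genes, counts of 0 higher are near these shares and are not read as a trait of the list. Those lower on day 16 were led by Batf2 (-2.92), Cebpb (-2.12), Maff (-1.53) and Mafk (-1.29). Cebpb, a C/EBP factor, led on days 6 and 9 as well, at -1.77 and -2.34. In D9T+ 4 of 14 had their highest value, beside 4.30% of kept genes. These were Maff, Mafg, Mafk and Cebpb, of which Mafg is named only for that value.

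Genes often described as AP-1 targets, mostly proteases, their inhibitors and growth factors, were lower in the successful fractions. Of 18, 17 were kept and Mmp13 was not. In the successful fraction 11 of 17 were past 2-fold lower on day 6, 11 on day 9, 4 on day 12 and 12 on day 16, none was past 2-fold higher, and on each of the 4 days 0 of 17 lay above 0, beside 50.3%, 51.5%, 48.3% and 48.3% of kept genes. The medians were -1.75, -1.30, -0.61 and -2.06. On day 16 the largest differences were those of Cd44 (-3.03), a hyaluronan receptor, Areg (-3.01), an EGF receptor ligand, Ccnd1 (-2.77), cyclin D1, and Hmox1 (-2.70), heme oxygenase.

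The targets differed in both directions between D9T+ and D0. There 3 of 17 were past 2-fold higher, beside 10.0% of kept genes, and 6 lower, beside 7.53%. Mmp3 and Mmp10, stromelysins, and Plau, urokinase, differed by -5.45, -5.09 and -3.30, and Il6, an inflammatory cytokine, by 3.40. Mmp3 was at 624 FPKM in D0 and 9.25 FPKM in D3. Which of these genes answer to AP-1 in these cells was not tested.

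At day 16 the fractions differed in where they stood relative to D0. D16S+ was past 2-fold below D0 in 4 of 8 genes (Fosl1 -3.79, Jun -2.01, Junb -1.79 and Fosl2 -1.53), beside 20.9% of kept genes, and above it in 1 (Fos 1.90), beside 20.0%, or in 2 when libraries are scaled to equal total FPKM. D16S- was past 2-fold below D0 in 0, beside 11.4%, and above it in 3 (Fos 3.08, Fosb 2.12 and Atf3 2.11), beside 12.8%. Fosl2 in D16S-, at 0.98, lay just under the threshold. The medians of the 8 genes were -0.68 and 0.59, and both comparisons share the D0 library.

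The steps between neighbouring stages were compared next. D12S+ was past 2-fold below D9T- in 1 of 8 genes (Atf3 -2.61), beside 3.30% of kept genes, and above it in 0, beside 7.05%. From D12S+ to D16S+ 4 of 8 were past 2-fold lower (Fosb -2.12, Fos -1.57, Junb -1.26 and Fosl1 -1.25), beside 5.32%, and 0 higher, beside 3.59%. From D12S- to D16S- 0 were past 2-fold in either direction, beside 2.03% higher and 0.536% lower. Fosl1 and Fosl2 differed by 0.66 and 0.88 in that step, and Jun by 0.40. iPSCs were past 2-fold below D16S+ in 3 genes (Fos -3.46, Fosb -1.74 and Jun -1.01), beside 7.77%, and above it in 0, beside 4.38%.

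In established iPSCs most of the family was lower than in D0. Against D0, 6 of 8 genes were past 2-fold lower (Fosl1 -4.03, Jun -3.02, Junb -2.65, Fosl2 -1.92, Fos -1.56 and Fosb -1.15), beside 21.6% of kept genes. At equal total FPKM Fosb was at -0.97. 1 gene was past 2-fold higher, Atf3 at 1.53, beside 18.7%. The median was -1.74. All 11 kept fibroblast markers were past 2-fold lower in the same comparison, with a median of -6.44, and 11 of 17 AP-1 targets were, with 0 higher and a median of -2.30 (Mmp3 -8.74, Mmp10 -6.19, Plau -6.10 and Cd44 -5.01). Of the partner genes 7 of 14 were past 2-fold lower and 0 higher, led by Cebpb (-3.16) and Jdp2 (-2.60). Of the other immediate-early genes 6 of 18 were lower and 2 higher, led by Ier3 (-3.58) and Klf2 (3.56). For all of these lists the shares of kept genes are the same 21.6% lower and 18.7% higher.

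Between the stem cell lines, 7 of 8 genes had the higher value in iPSCs, beside 47.8% of kept genes. iPSCs were past 2-fold above mESCs in 4 of 8 genes (Fosl2 1.92, Atf3 1.50, Fosl1 1.38 and Jun 1.07), beside 6.79% of kept genes, and below them in 0, beside 7.41%. Levels were low on both sides, at 7.30 against 1.20 FPKM for Fosl2, 7.99 against 2.17 for Atf3, 4.05 against 0.946 for Fosl1 and 12.4 against 5.40 for Jun, and the intervals of each pair overlapped. Fos was the 1 gene with the lower value in iPSCs, at 4.86 against 6.90 FPKM. Of the other immediate-early genes 6 of 18 were past 2-fold above mESCs and 0 below, led by Cyr61 (3.35) and Ctgf (2.97); both encode matricellular proteins.

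Over the 12 libraries, the members fell into patterns that can be described by correlation of log2(FPKM + 1). Most of the points are stages of 1 process, so they are not independent. Fos and Fosb had a Pearson r of 0.95 (Spearman 0.87), and Fosl1 was most like Jun, at 0.94 (0.92). Fosl2 was about equally like Junb, at 0.91 (0.84), and Jun, at 0.91 (0.87). Jun and Junb had 0.93 (0.89), whereas Fos and Fosl1 had 0.48 (0.26). Jund had a negative r with each of the other 7, from -0.42 to -0.16.

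Outside the family, likeness was searched among 8792 genes that reached 10 FPKM in at least 1 library, without the OSKM genes. The nearest to Fos were Ly6c1 (r = 0.981), Acot1 (0.973) and Pkp1 (0.966), and to Fosb Mettl7a1 (0.971), Egr1 (0.962) and Fcgr2b (0.953). Egr1, a zinc finger immediate-early factor, was at 61.9 FPKM in D0, 386 in D9T+ and 7.55 in iPSCs. For Fosl1 the nearest were Itpripl2 (0.987), Lhfp (0.986) and Chpf2 (0.984), to Fosl2 Mir22hg (0.981), Sqstm1 (0.973) and Htatip2 (0.967), to Jun Bin3 (0.987), Ano10 (0.986) and Zfp787 (0.980), and to Junb Osgin1 (0.973), Nck2 (0.969) and Pkd1 (0.966). For Atf3 they were Mnt (0.927), Ccnl1 (0.888) and Nr4a1 (0.887), and for Jund, whose level hardly varied, Khdrbs1 (0.734) and Tusc2 (0.695) were among the nearest.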

How the data were processed

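mRNA-Seq was examined in 12 libraries, 1 per condition, grouped by the titles in the labels. Columns named pos and neg were read as the sign of the sorting marker. The authors prepared TruSeq mRNA libraries (a stranded kit per the labels), mapped reads to mm9 with STAR, removed reads with mismatches above their limit or at several loci, and ran cuffdiff. The deposited values are FPKM with the interval cuffdiff gave to each. Versions, annotation, strand setting and scaling are not given in the sources used here. Leaving out such reads lowers the values of genes that have near copies elsewhere, and OSKM genes were left out because retroviral reads cannot be separated. The 12 status columns were not used.

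Genes with at least 1 FPKM in at least 1 library were kept, and differences were taken on log2(FPKM + 1), which understates the change of low genes. Genes differing at least 2-fold on this scale were counted, for members and for all kept genes, with no test. Of 18 comparisons, 8 (those between neighbouring stages and of day 6 with D0) were added after seeing the data. All members were named, with at most 4 genes per list and comparison by size of difference past 2-fold, and the 3 genes nearest each member by Pearson r. For Jund, 1 of these 3 is not reported here. Exceptions are said to be named for their values. Members and lists were chosen with earlier results of these data known. Promoter windows came from RefSeq tables, and gene positions from GENCODE M1 on mm9. Functions were tested on simulated data. Python 3.11.15, pandas 2.3.3, numpy 2.4.6 and matplotlib 3.10.9 were used. Alternatives were a pseudocount of 0.1, equal total FPKM, median-of-ratios scaling, a 4-fold threshold, intervals that do not overlap, and filters of 5 FPKM or none.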

Additional observations from a re-analysis of the deposited data

Results flagged for a closer look

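Fosb differed in opposite directions between the fractions of days 6 and 16. On day 6 it was listed at 26.8 FPKM (D6T-) and 8.48 (D6T+), a log2(FPKM + 1) difference of 1.55, and on day 16 at 4.83 FPKM (D16S+) and 15.8 (D16S-), a difference of -1.53. The differences lie 3.08 apart. With 1 library per fraction the gap between them was not tested, and the cuffdiff intervals of each pair overlapped (1.66 to 51.9 FPKM against 0 to 17.7 FPKM on day 6, and 0 to 11.1 FPKM against 0.216 to 31.3 FPKM on day 16). The sorting marker also changed, from Thy-1 to SSEA-1, so marker and day cannot be told apart. Fos had the same signs, at 0.91 and -1.18, without passing 2-fold on day 6.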

How the results depend on the processing

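Each condition had 1 library, so no replicate could be left out. No paired analysis was possible because the labels give no replicate numbers that conditions share. The 4 days with paired fractions are different stages with a change of sorting marker, were not taken as replicates of a route, and no test across them was run. With a threshold of 4-fold, only the counts that changed by more than 1.5-fold are listed here. Counts that changed less are left out, such as that of D16S- against D0, where Fos (3.08), Fosb (2.12) and Atf3 (2.11) stayed past 4-fold. Among the 10 comparisons not added later, the members past this threshold above the second library numbered 0 for D3 against D0, D6T- against D6T+, D16S+ against D0, iPSCs against D0 and iPSCs against mESCs, and 3 for D9T+ against D0. Those below it numbered 0 for D6T- against D6T+, D9T- against D9T+ and D12S+ against D12S-, 2 for D16S+ against D16S-, 2 for D16S+ against D0 and 3 for iPSCs against D0. Among the 8 added comparisons, those above numbered 1 for D6T+ against D0, 2 for D9T+ against D6T+ and 1 for D9T- against D6T-. Those below numbered 0 for D6T- against D0, 1 for D16S+ against D12S+ and 1 for iPSCs against D16S+. The shares of kept genes past 4-fold were not computed, so whether these counts differ from those of all genes is unknown. When intervals had to lie apart, 0 members were counted in either direction in any of the 18 comparisons. The same count over kept genes was not made, so this is not read as a trait of the members. D16S+ against D0 held 2 higher genes in place of 1 with a pseudocount of 0.1 and with equal total FPKM, as Atf3 (0.81) joined Fos with values up to 1.11. The median of the members for iPSCs against mESCs was 1.47 with a pseudocount of 0.1, against 0.83. With equal total FPKM the median difference over kept genes changed by 0.13 (D9T+) to 0.30 (D16S+) in the comparisons with D0 and by -0.12 for iPSCs against D16S+. Under it the sign turned only for small differences: Fosl1 (-0.19 to 0.08) and Jund (-0.12 to 0.14) in D3 against D0, Junb in D16S- against D0 (-0.18 to 0.12) and in D6T+ against D0 (-0.15 to 0.11), and Jund in D16S+ against D16S- (-0.03 to 0.08). Calls near the threshold also changed for Fosl2 in D16S- against D0 (0.98, up to 1.27), Fosb in iPSCs against D0 (-1.15, to -0.97) and in iPSCs against mESCs (0.60, up to 1.76), Atf3 in D6T+ against D0 (0.78, up to 1.00), Jun in D6T- against D0 (-1.25, to -0.92) and Junb in iPSCs against D16S+ (-0.86, to -1.03). Without a filter every background share was lower by more than 1.5-fold, as had to be. A gene below 1 FPKM in every library cannot differ by 1 on log2(FPKM + 1), so only the number of genes counted over changed. Of the values under the alternatives set for the comparisons not added later, 278 stayed within 1.5-fold of the value reported and 52 did not. The 52 include these unfiltered shares, 10 of genes higher and 10 of genes lower. No difference called 2-fold changed direction in the alternatives run, but none could have. A pseudocount keeps the sign, and both scalings were too small to turn a 2-fold difference. The low levels of Fosb, Fosl1 and Fosl2 in mESCs limit their folds. Beyond this and the unfiltered shares, the cause of the changes was not tested.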
